A study of Mus musculus with 31 samples.

Results

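The genes of the 2-cell burst examined here were Zscan4c, Zscan4d, Zscan4f, Zfp352, Tcstv1, Tcstv3, Duxf3, Duxbl1, Zfp750 and Spz1, chosen by name and followed across 31 single embryos. Of these 10 genes, 9 had a row among the 20544 genes of the count table, and 8 had at least 1 count. Duxf3 had no row under that name, and Duxbl1 was listed at 0 counts in all 31 embryos. The embryos were mouse 2-cell embryos collected at 32 h post-insemination (HPI), each sequenced as its own library with Smart-seq3, a full-length method with molecular identifiers at the 5′ end. Sperm came from C57BL/6J males of 12 to 14 weeks and eggs from superovulated CD1 females of 8 to 10 weeks, so every embryo was a hybrid of these strains and carried no edited allele. For sperm energy restriction and recovery (SER), sperm were kept without glucose and pyruvate for 15 to 45 min until they stopped moving and were then returned to complete medium. Control sperm were handled in parallel in complete medium, and both were left with eggs for 4 h. There were 16 control-generated and 15 SER-generated embryos. The total count ran from 532945 to 2085222 (median 955806.5) in control- and from 642321 to 3088396 (median 1375557) in SER-generated embryos. Embryos came from 3 batches, but nothing in the labels says which embryos shared a batch, a male or a female, so p-values treat all embryos of a group alike and measure the spread between these embryos.

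Zygotic genome activation in the mouse begins weakly in the zygote and reaches its major wave in the late 2-cell embryo, when a set of genes is transcribed in a short burst and then shut down. The double homeobox factor Dux binds and activates many of these genes together with MERVL retrotransposons. The Zscan4 genes encode proteins with a SCAN domain and zinc fingers, are expressed in late 2-cell embryos and in a rare fraction of embryonic stem cells, and have been linked to telomere maintenance there. Zfp352 encodes a zinc-finger protein of the early embryo, and Tcstv1 and Tcstv3 belong to a small gene family named for its variable expression at the 2-cell stage.

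The Zscan4 genes lie in a tandem cluster on chromosome 7. In GENCODE vM21 (GRCm38, the assembly of the authors' mm10 build), Zscan4c is at chr7:11005745-11010547 on the plus strand, Zscan4d at chr7:11161374-11166159 on the minus strand and Zscan4f at chr7:11397915-11402318 on the plus strand. Coding sequences of Zscan4c and Zscan4f are 99.6% identical, and each is 97.7% identical to that of Zscan4d. The stretches below are shown because this likeness limits which reads can be given to 1 gene. The first 30 coding bases are the same in Zscan4c, Zscan4d and Zscan4f:
Zscan4c, Zscan4d and Zscan4f, coding bases 1 to 30: atggcttcacagcaggcaccagcaaaagac
Coding bases 871 to 900 separate Zscan4d from the other two, with the 4 differing bases in capitals:
Zscan4c: agTGgtgataatattcccaggaaCaagTca
Zscan4d: agAAgtgataatattcccaggaaAaagAca
Zscan4f: agTGgtgataatattcccaggaaCaagTca
Coding bases 1024 to 1053 separate Zscan4c from Zscan4f, again with differing bases in capitals:
Zscan4c: cttggggaatgtttttctgaaaaCgacccA
Zscan4f: cttggggaatgtttttctgaaaaAgacccT

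Tcstv1, at chr13:119893388-119894785 on the minus strand, and Tcstv3, at chr13:120316878-120318178 on the plus strand, have coding sequences that are 93.6% identical. Their first 30 coding bases are the same, and the 6 bases that differ in coding bases 424 to 453 are in capitals:
Tcstv1 and Tcstv3, coding bases 1 to 30: atggataaagccaagaagatgatgcagtcc
Tcstv1: gactgccctgTccGggatcctgTTtctGaC
Tcstv3: gactgccctgAccAggatcctgCAtctTaT

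The 250 bases upstream of the start sites of the 3 Zscan4 genes are shown because counts of Zscan4d and Zscan4f varied together across embryos, as described further on, and Zscan4c is set beside them. They come from RefSeq (GRCm38.p6), are written 5′ to 3′ on the gene's strand, and have the letters TATAAA in capitals:
Zscan4c, chr7:11005495-11005744, plus strand: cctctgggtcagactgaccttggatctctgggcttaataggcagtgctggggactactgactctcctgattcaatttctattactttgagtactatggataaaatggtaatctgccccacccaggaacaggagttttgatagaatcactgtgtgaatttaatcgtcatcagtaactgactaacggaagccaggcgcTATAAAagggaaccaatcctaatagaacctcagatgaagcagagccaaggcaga
Zscan4d, chr7:11166149-11166398, minus strand: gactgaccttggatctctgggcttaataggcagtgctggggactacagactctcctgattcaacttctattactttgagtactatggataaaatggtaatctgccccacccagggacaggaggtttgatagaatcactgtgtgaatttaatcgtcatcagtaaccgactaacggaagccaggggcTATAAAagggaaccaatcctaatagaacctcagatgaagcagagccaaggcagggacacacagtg
Zscan4f, chr7:11397665-11397914, plus strand: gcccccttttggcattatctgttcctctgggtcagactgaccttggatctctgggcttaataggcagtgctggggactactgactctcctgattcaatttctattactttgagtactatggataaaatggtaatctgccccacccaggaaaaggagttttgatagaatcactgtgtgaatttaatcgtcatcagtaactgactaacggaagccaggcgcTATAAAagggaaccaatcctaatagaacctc
Aligned end to end, the upstream windows of Zscan4c and Zscan4d were 89.3% identical over 261 columns. Those of Zscan4c and Zscan4f were 82.8% identical over 273, and those of Zscan4d and Zscan4f 73.6% over 284. The windows end at different annotated starts, and their unmatched ends were counted as differences. These values therefore do not rank how alike the shared stretches are. The letters TATAAA began 54, 65 and 31 bases before the RefSeq start of Zscan4c, Zscan4d and Zscan4f. For Zscan4d the window reaches into the gene as placed by GENCODE above, so the distance to the GENCODE start is shorter. On both strands, 12.4% of 32851 upstream sequences of the same length held TATAAA. The Dux motif was held by 10 of the 32851 sequences (0.0304%) and the letters TGCACAC, bound by ZSCAN4 proteins, by 1206 (3.67%). Neither was in the 3 windows printed here, so no searched motifs overlapped there.

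Levels are given as CPM, counts scaled to a fixed library total and hence a share of an embryo's total count, so more RNA of a gene cannot be told apart from less RNA of other genes. Control embryo 4 and SER embryo 15 stood apart from the other 29. Over 24 other genes of the 2-cell burst that passed the filter on low counts, the mean level was 1.82 and 2.36 log2 CPM in these embryos, against 3.95 to 6.30 in the other 29. Of these 24 genes, 14 had no count in control embryo 4 and 10 had none in SER embryo 15, against at most 2 in any other embryo. The mean over 26 maternal oocyte transcripts was 8.41 and 8.42 log2 CPM, against 6.15 to 8.29. Their total counts did not set them apart, since SER embryo 15 was among the deepest libraries and control embryo 4 among the shallower. What these embryos have in common was not tested, and results that rest on them are given with and without them.

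Markers of cumulus cells, which surround the egg, were low in most libraries. Of 16 such markers, 0 passed the filter on low counts, and their summed level ran from 0.628 to 1733 CPM in control- and from 3.11 to 21.1 CPM in SER-generated embryos. The highest sum was in control embryo 5, with 1423 CPM of Cyp11a1, an enzyme of steroid synthesis. The median sum was 24.4 CPM with control sperm against 11.1 CPM with SER sperm. In the edgeR fit with no filter, 363 of 17803 genes were called lower with SER sperm and 141 higher. Among those called lower were Cyp11a1, Fst, Inha and Inhba, at log2 fold changes of -5.35, -5.49, -4.80 and -4.23 (adjusted p = 0.0256, 0.0638, 0.0641 and 0.0646). All 4 were highest in control embryo 5. Ptx3, Ptgs2, Amh, Lum, Tnfaip6, Col1a1 and Foxl2 had estimates above 0, from 0.08 to 1.84, and were not called. The part of these markers in the values of the burst genes was not tested. Sperm markers other than Odf2 and Ldhc did not pass the filter. Without a filter, the edgeR fit called Smcp and Odf1 higher with SER sperm, at log2 fold changes of 3.87 and 3.15 (adjusted p = 0.0649 and 0.0686). Both had counts in 3 embryos and averaged 0 CPM with control sperm. Prm1 was at -2.22 in that fit and was not called (adjusted p = 0.144). Maternal transcripts such as Omt2b and Btg4 and zygotic ones such as Klf17 were abundant in both groups, as set out with the gene lists below.

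**Figure D1:**
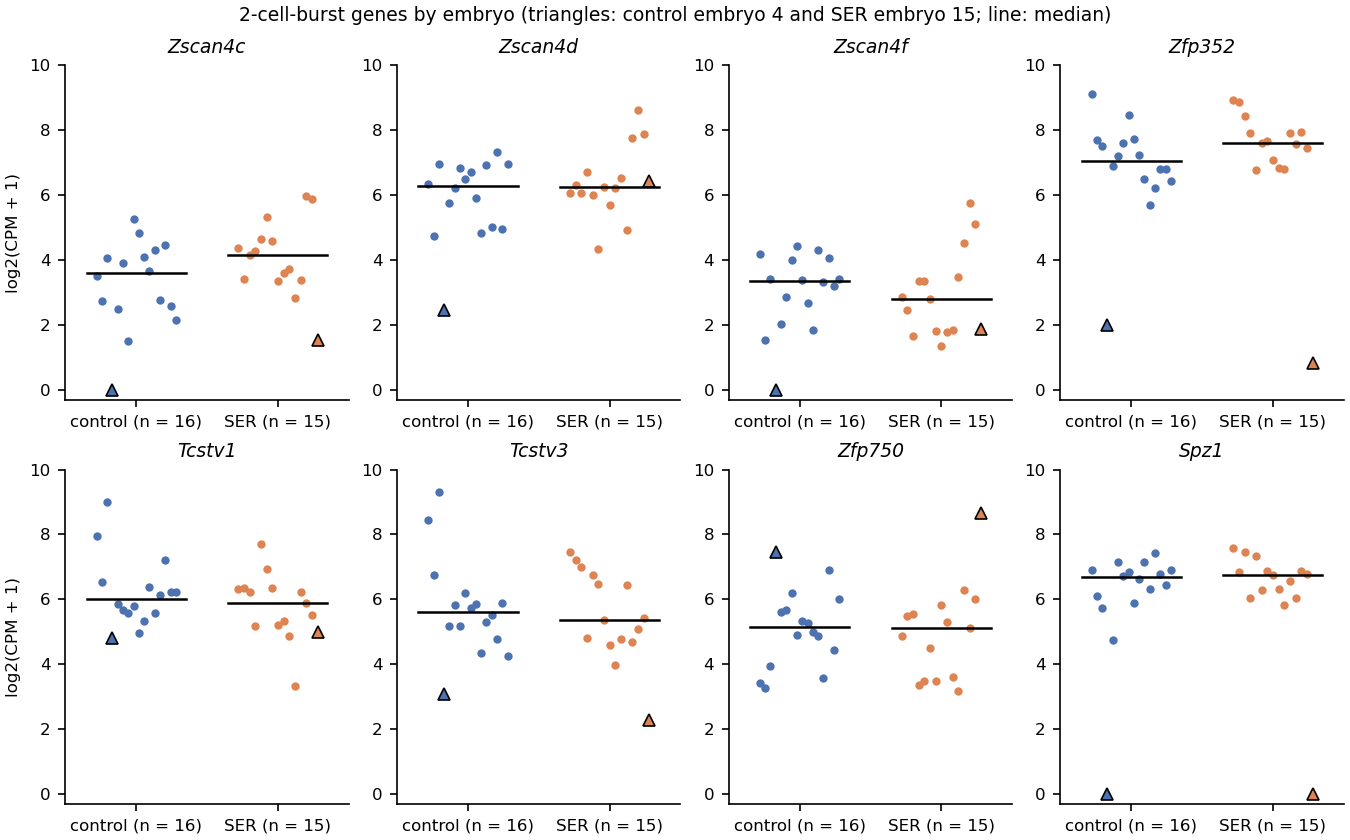
Level of the 8 detected genes in each embryo as log2(CPM + 1), by group, with 16 control- and 15 SER-generated embryos, the median as a line, and control embryo 4 and SER embryo 15 as triangles (horizontal offsets only separate the points). The groups overlapped in each gene, and the triangles lay lowest for Zfp352, Tcstv3 and Spz1 and highest for Zfp750.

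Whether embryos made with SER sperm differed in the burst was asked for each gene in a fit across all genes (edgeR's quasi-likelihood test, Benjamini-Hochberg adjustment, threshold adjusted p under 0.1). All 8 detected genes passed the filter, and 0 of 8 were called, where 0 of 8571 tested genes (0%) were called. At an unadjusted p under 0.05 there were 491 genes (5.73%) and 0 of the 8. Estimates were above 0 (higher with SER sperm) for 6 of the 8 genes and below 0 for 2. Their median was 0.25 on the log2 scale, against 0.02 over all tested genes. DESeq2 called 46 of 17803 genes, and limma voom with quality weights for each embryo called 848 (9.89%), with 0 of the 8 genes among them in either. DESeq2 gave Zscan4c and Zscan4f no adjusted p. The lowest adjusted p that any of the 8 reached in any alternative was 0.235, for Zfp352 with limma voom.

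Zscan4d was the most abundant Zscan4 gene with a row. Its level ran from 4.53 CPM through a median of 76.7 to 160 CPM in control-generated embryos. In SER-generated embryos it ran from 19.2 through 75.2 to 389 CPM. The groups overlapped over most of their range, and 3 of 15 SER-generated embryos, embryos 12, 13 and 14, lay above the highest control. They held 216, 389 and 234 CPM. The fitted log2 difference, SER minus control, was 0.49 (SE 0.37, adjusted p = 0.935, edgeR), from 76.5 ± 45.5 CPM (SD, n = 16) to 109 ± 97.6 CPM (SD, n = 15). Without those 3 embryos the estimate was -0.23 (adjusted p = 0.890), and without SER embryo 13 alone it was 0.19. The 3 were chosen for their high values, so leaving them out must lower the estimate.

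The same 3 embryos were deep libraries. Among the 14 SER-generated embryos other than embryo 15, Zscan4d rose with the log2 total count, with Pearson's r = 0.669 (permutation p = 0.00731) and Spearman's rho = 0.719 (permutation p = 0.00533, 0.0256 adjusted over 24 such relations). Without the 2 embryos farthest from the median depth, r was 0.762. In 15 control-generated embryos the same relation had r = -0.387 (permutation p = 0.154) and rho = -0.218 (permutation p = 0.434, adjusted p = 0.745). With log2 library size as a covariate, the log2 fold change of Zscan4d was -0.07. Over the 29 embryos of both groups together, 4 of 24 such relations passed an adjusted p of 0.05 for rho, and none of these was with depth. SER embryo 15, left out of these relations, held 84.9 CPM of Zscan4d at a total count of 2567720. The part of depth in these values was not tested.

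Zscan4c ran from 0 CPM (control embryo 4) through 11.1 to 37.9 CPM in control- and from 1.95 through 16.7 to 61.7 CPM in SER-generated embryos. Again 3 SER-generated embryos, embryos 13, 14 and 6, lay above the highest control, and 10 of 15 exceeded the median control embryo. The fitted difference was 0.79 on the log2 scale (SE 0.46, adjusted p = 0.891), from 12.5 ± 10.2 to 21.4 ± 18.0 CPM, and it ran from 0.58 to 0.98 with each embryo left out. This was the largest positive estimate of the 8 genes. Zscan4f was lower, with 0 through 9.27 to 20.9 CPM in control- and 1.56 through 6.00 to 53.0 CPM in SER-generated embryos. SER embryos 13, 14 and 12 were highest, while the SER median lay below the control median. The log2 fold change of Zscan4f was 0.22 (SE 0.51, adjusted p = 0.981), and it was -0.34 with limma voom and -0.43 with library size as a covariate.

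Counts of the 5 Zscan4 rows of the table (Zscan4a, Zscan4b, Zscan4c, Zscan4d and Zscan4f) were also summed, which sets aside how counted reads were shared out among them. Reads that were dropped for matching several copies are missing from the sum as well. The sum ran from 4.53 through 133 to 269 CPM in control- and from 71.6 through 130 to 753 CPM in SER-generated embryos. Medians were nearly equal, and the SER maximum was that of embryo 13. The log2 fold change of the summed row was 0.56 (SE 0.36, adjusted p = 0.922).

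Per kb of exon, the rows of the cluster differed widely. Over 31 embryos Zscan4d averaged 40.7 CPM per kb, Zscan4a 17.3, Zscan4c 7.38, Zscan4f 5.29 and Zscan4b 3.13. Zscan4d was thus 5.51-fold above Zscan4c and 7.68-fold above Zscan4f on this scale. The rows also differed in how much of their sequence belongs to them alone, as the coding stretches printed above show. Of all 30-base words in the exons, 34.0% of those of Zscan4d occur in no other annotated gene, against 8.14% for Zscan4c, 8.02% for Zscan4f, 22.6% for Zscan4a and 4.55% for Zscan4b. Zscan4c shares 70.4% of its words with Zscan4f, and 82.2% with Zscan4-ps2, another copy on chromosome 7, which had no row in the table. The authors kept uniquely mapping reads for the 5′ reads.

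When the mean CPM was set against the number of unique words instead of exon length, the order of the rows narrowed. Zscan4d then had 121 CPM per 1000 unique words, Zscan4c 91.8, Zscan4a 77.6, Zscan4b 68.9 and Zscan4f 66.0. Zscan4d was 1.32-fold above Zscan4c and 1.84-fold above Zscan4f on this scale. Of words of 45 bases, 1053 of Zscan4d, 288 of Zscan4c, 742 of Zscan4a, 148 of Zscan4b and 238 of Zscan4f were unique. The folds and the order of the lowest rows therefore depend on the word length. How much of the difference between rows comes from the reads that could be placed was not tested, and values for single Zscan4 rows are uncertain for this reason.

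**Figure D2:**
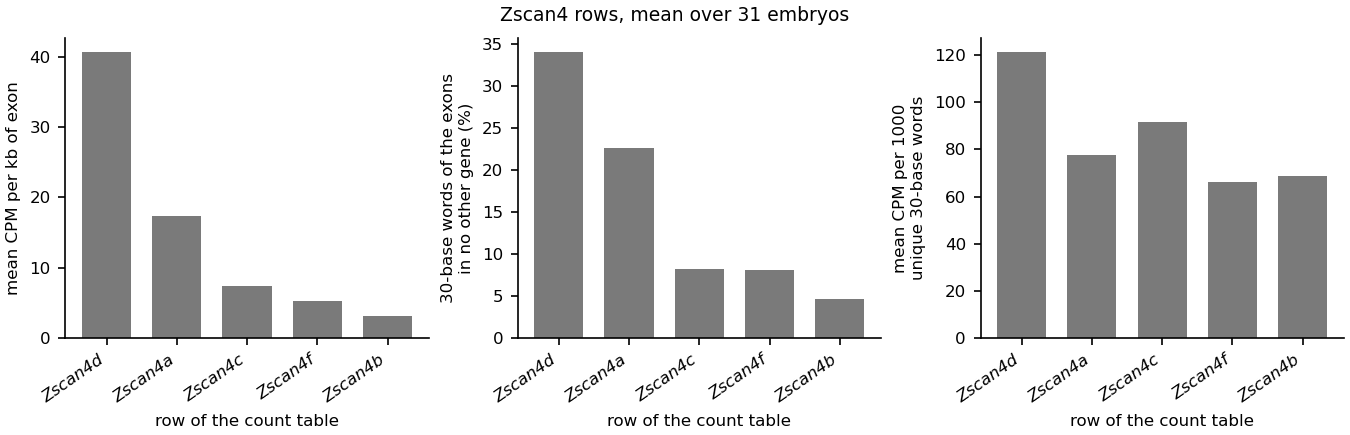
Mean level of the 5 Zscan4 rows over 31 embryos per kb of exon (left), the percent of their 30-base words found in no other gene (middle), and the mean level per 1000 such words (right). Per kb, Zscan4d was 5.51-fold above Zscan4c, while per unique word it was 1.32-fold above it.

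Within embryos, the split of Zscan4 counts among rows was uneven. In the 27 embryos with at least 50 Zscan4 counts, Zscan4d took a median of 56.6%, Zscan4a 23.7%, Zscan4c 8.49%, Zscan4f 5.88% and Zscan4b 2.22%. Zscan4d had the most counts of any row in 27 of 31 embryos, Zscan4a in 3 and Zscan4c in 1. That 1 embryo was SER embryo 6, where Zscan4c took 33 of 74 counts (44.6%, 95% Wilson interval 33.8 to 55.9%). At the other end, Zscan4d took 91.2% in SER embryo 15, one of the embryos that stood apart. Medians for Zscan4d were 57.0% in control- and 54.1% in SER-generated embryos. Intervals cover counting error only. Internal reads carry no molecular identifier, so duplicates left among them could make the intervals too narrow.

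**Figure D3:**
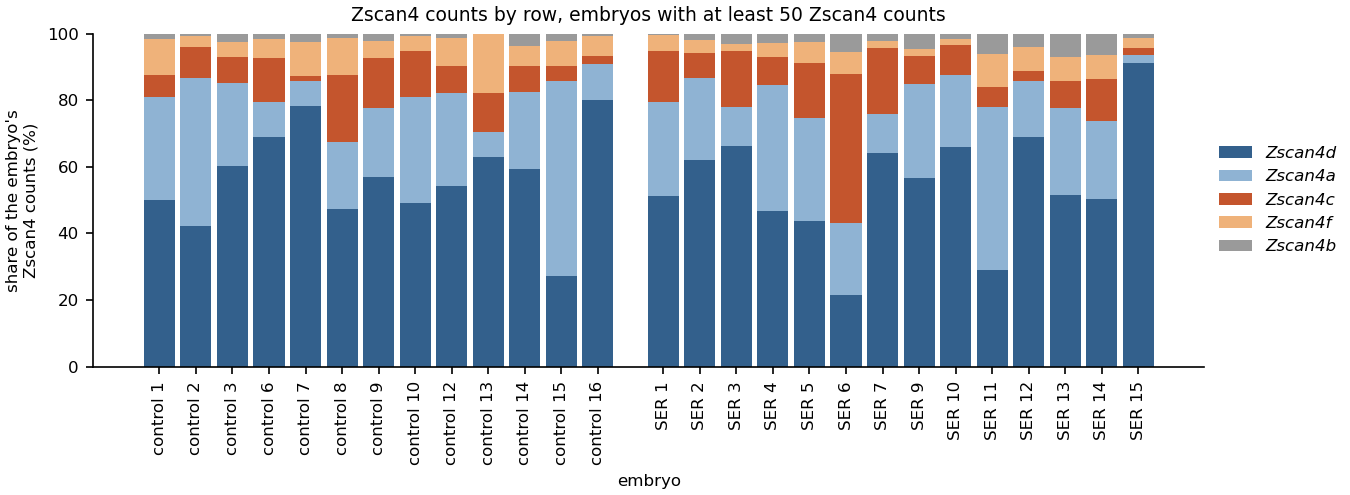
Share of each embryo's Zscan4 counts that fell on each of the 5 rows, for the 13 control- and 14 SER-generated embryos with at least 50 such counts. Zscan4d held the largest share in most bars, and SER embryo 6 had the largest Zscan4c share, 44.6%.

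Zfp352, at chr4:90218820-90225702 on the plus strand, was the most abundant of the 8 genes by mean CPM. It ran from 3.02 (control embryo 4) through 132 to 559 CPM in control-generated embryos. In SER-generated embryos it ran from 0.779 (embryo 15) through 196 to 490 CPM. The embryos that stood apart held 2 counts each, and the other 29 ran from 51.1 to 559 CPM. The fitted log2 difference was 0.31 (SE 0.43, adjusted p = 0.968), from 165 ± 132 to 217 ± 132 CPM. In 11 of 15 embryos made with SER sperm, the level exceeded the median control embryo. Without both embryos that stood apart it was 0.33 (adjusted p = 0.832). Leaving out single embryos moved it between 0.18, without SER embryo 1, and 0.62, without control embryo 1.

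Tcstv1 and Tcstv3 were the 2 genes with estimates below 0 in this fit, while limma voom gave 0.0590 and 0.35. Tcstv1 ran from 27.2 through 63.1 to 508 CPM in control- and from 9.11 through 58.3 to 210 CPM in SER-generated embryos. Tcstv3 ran from 7.54 through 48.4 to 634 CPM in control- and from 3.89 through 40.2 to 174 CPM in SER-generated embryos. Control embryos 3 and 1 were highest for both genes and lay above every SER-generated embryo, with 508 and 246 CPM of Tcstv1. The log2 fold change was -0.73 for Tcstv1 (SE 0.42, adjusted p = 0.869) and -0.82 for Tcstv3 (SE 0.53, adjusted p = 0.928). Without control embryo 3 these estimates were -0.23 and -0.10, so 1 embryo carried most of the difference. With both rows summed, the log2 fold change was -0.78 (SE 0.43, adjusted p = 0.868).

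Of the related genes on chromosome 13, AF067063 and BC147527 were highest in control embryos 3 and 1 as well, and AF067061 in control embryo 3 and SER embryos 1 and 2. AF067063 reached 1048 CPM in control embryo 3 and BC147527 reached 600 CPM there, while both were at 0 or 1 count in control embryo 4 and SER embryo 15. Log2 fold changes of AF067063, BC147527 and AF067061 were -0.55, -0.10 and -0.42, with adjusted p of 0.958, 0.993 and 0.974. Of the 30-base words of Tcstv3, 47.6% occur in no other gene, against 70.4% for Tcstv1 and 17.8% for AF067063, so reads may be split among these copies too.

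The Dux family was barely detected in these counts. The table had no row named Duxf3 but had a row named Dux. Both names are in use for the double homeobox factor, but the annotation tables used here do not pair them, so the Dux row is given under its own name. Among control-generated embryos 11 of 16 had no count of it, as had 10 of 15 made with SER sperm, and it reached at most 3.04 CPM. Of the 30-base words annotated as Duxf3, 38.8% occur in no other gene. The part of reads that could not be placed was not tested. Duxbl1, a related double homeobox gene on chromosome 14, had 0 counts throughout, which allows a level of up to 0.971 CPM in the deepest and 5.63 CPM in the shallowest embryo. Of its 30-base words, 96.0% also occur in Duxbl2 and Duxbl3, so a count of 0 need not mean that the gene was silent.

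Zfp750, a zinc-finger factor known for its role in skin differentiation, behaved apart from the other genes. It ran from 8.63 through 34.6 to 177 CPM in control- and from 8.10 through 33.9 to 400 CPM in SER-generated embryos. The 2 highest embryos were SER embryo 15, with 400 CPM, and control embryo 4, with 177 CPM, the embryos lowest in Zfp352. Every other embryo was at or below 120 CPM. The fitted log2 difference of Zfp750 was 0.27 (SE 0.50, adjusted p = 0.978), and it turned to -0.60 without SER embryo 15 and to -0.25 without both embryos (adjusted p = 0.906). With all embryos kept, it was also below 0 with DESeq2 (-0.61), with limma voom (-0.65) and with library size as a covariate (-0.0944). With replicate number as a block, a fit that left out the unpaired control embryo 16, it was -0.0915. Zfp750 thus had no steady direction.

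Spz1, a transcription factor first described in testis, was the steadiest of the 8 genes once the embryos that stood apart were set aside. It ran from 0 through 101 to 171 CPM in control- and from 0 through 106 to 190 CPM in SER-generated embryos, with 0 counts in control embryo 4 and in SER embryo 15. The other 29 embryos ran from 26.1 to 190 CPM. For Spz1 the fit gave 0.11 on the log2 scale (SE 0.41, adjusted p = 0.986), the estimate nearest to 0 among the 8 genes. All 30-base words of Spz1 and of Zfp750 are unique to them.

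**Figure D4:**
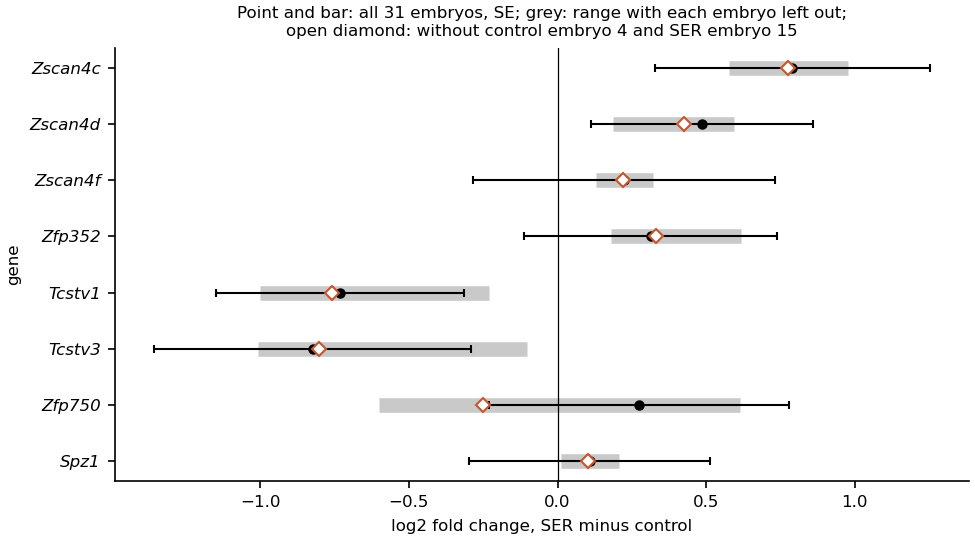
Log2 fold change (SER minus control) of the 8 detected genes with its SE over 31 embryos, the range with each embryo left out in turn (grey), and the value without control embryo 4 and SER embryo 15 (open diamonds). Grey bars of Tcstv1 and Tcstv3 reach -0.23 and -0.10, and that of Zfp750 crosses 0.

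Per kb of exon, the order over 31 embryos was Tcstv3 with 107 ± 157 CPM per kb (SD, n = 31), Zfp352 with 83.7 ± 58.4, Spz1 with 63.2 ± 30.0 and Tcstv1 with 61.0 ± 66.9. Below these came Zscan4d with 40.7 ± 33.4, Zfp750 with 16.2 ± 22.8, Zscan4c with 7.38 ± 6.57 and Zscan4f with 5.29 ± 5.58. Neighbours in this order were compared within embryos by a paired permutation test with 100000 resamples, adjusted over 7 pairs. Only Zscan4d and Zfp750, among these neighbours, differed past an adjusted p of 0.05, with Zscan4d higher in 29 of 31 embryos (permutation p = 0.00066, adjusted p = 0.00462). For the other 6 pairs the adjusted p ran from 0.0573 to 0.921. Among 17453 genes with counts and an exon length, Tcstv3 ranked 433, Zfp352 622, Spz1 916, Tcstv1 958, Zscan4d 1507, Zfp750 3377, Zscan4c 5460 and Zscan4f 6390. Per 1000 unique words the order changed to Tcstv3 (232 CPM), Zscan4d (121), Zfp352 (110), Zscan4c (91.8), Tcstv1 (86.7), Zscan4f (66.0), Spz1 (64.4) and Zfp750 (16.3), so the places of Zscan4d, Zscan4c and Spz1 depend on the scale.

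Spread between embryos was compared as the absolute deviation of log2 CPM from the group median (limma, Benjamini-Hochberg over 8571 genes). No gene was called (0 of 8571, 0%), with 254 genes (2.96%) at an unadjusted p under 0.05 and 0 of the 8 among them. In simulated data this test recovered 7.5% of genes with added spread, so it misses much of what it looks for. Within groups, Zfp352 had an SD of 1.66 log2 CPM, above that of 93.0% of tested genes, and Spz1 had 1.65, above 92.6%, where the median over tested genes was 1.05. Without the embryos that stood apart, these SDs were 0.83 and 0.63, above those of 38.1% and 16.6% of genes. Tcstv3 kept a wide spread in both settings, with 1.47 and 1.33, above 83.7% and 83.0% of genes. The wide spread of Zfp352 and Spz1 rested on control embryo 4 and SER embryo 15, and that of Tcstv3 did not.

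Whether the genes varied together was asked over 28 pairs, with r and rho of log2 CPM across embryos and permutation tests with 100000 resamples, adjusted over the pairs. The permutations treat all embryos as exchangeable, so these p-values take no account of batch or replicate number. Over the 29 embryos without the ones that stood apart, 2 pairs passed an adjusted p of 0.05 for rho. Zscan4d and Zscan4f had r = 0.675 (permutation p = 6e-05) and rho = 0.694 (permutation p = 5e-05, adjusted p = 0.0014). For Zfp352 and Tcstv3, r was 0.629 (permutation p = 0.00025) and rho was 0.627 (permutation p = 0.00048, adjusted p = 0.00672). Without the 2 embryos farthest from the median of the first gene, r was 0.623 for Zscan4d with Zscan4f and 0.569 for Zfp352 with Tcstv3.

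Over all 31 embryos, 5 of 28 pairs passed. Zscan4d with Zscan4f had rho = 0.706 and Zfp352 with Tcstv3 had rho = 0.695 (permutation p = 2e-05 and adjusted p = 0.00028 for each). The other 3 pairs, which did not pass over 29 embryos, were Tcstv1 with Tcstv3 (rho = 0.512, adjusted p = 0.0258), Tcstv1 with Spz1 (rho = 0.511, adjusted p = 0.0258) and Tcstv3 with Zfp750 (rho = -0.485, adjusted p = 0.0328). Their Pearson r were 0.620, 0.290 and -0.557 (permutation p = 0.00041, 0.119 and 0.0013). Within groups, Zfp352 with Tcstv3 had rho = 0.753 in 16 control- and 0.732 in 15 SER-generated embryos (adjusted p = 0.0121 and 0.0365), with r = 0.70 and 0.76. Zscan4d with Zscan4f had rho = 0.779 in control- and 0.504 in SER-generated embryos (adjusted p = 0.0121 and 0.209), with r = 0.849 and 0.652. Tcstv3 with Zfp750 also passed in control-generated embryos (rho = -0.744, r = -0.672, adjusted p = 0.0121), and Tcstv3 with Spz1 in SER-generated ones (rho = 0.743, r = 0.754, adjusted p = 0.0365). Differences between the groups were not tested.

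Links between the Zscan4 genes and the other genes were weaker, and differences between correlations were not tested. Zscan4d had rho = -0.21 with Tcstv3 and 0.12 with Zfp352 over 29 embryos (r = -0.0769 and 0.135, adjusted p for rho of 0.598 and 0.762). Zscan4c had similar rho with Zscan4d (0.329), Zscan4f (0.326), Zfp352 (0.326) and Tcstv3 (0.256), with r of 0.389, 0.389, 0.254 and 0.169, and none of these pairs passed (adjusted p from 0.268 to 0.454). Among 8570 other tested genes, Zscan4f ranked 8 for Zscan4d by rho and Zscan4d ranked 3 for Zscan4f, over 29 embryos. Rows of the Zscan4 cluster share sequence, so reads placed on the wrong copy can link them, and that part was not tested. Of the 30-base words, 77.3% of those of Zfp352 and 47.6% of those of Tcstv3 occur in no other gene. The part of misplaced reads in the link of Zfp352 with Tcstv3, which lie on different chromosomes, was not tested either.

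Relatives were paired with the named genes and with each other (38 pairs adjusted together, 29 embryos). Zscan4f with Zscan4a had rho = 0.685 (r = 0.655, permutation p = 0.0001 for rho, adjusted p = 0.000543). Tcstv3 with AF067061 had rho = 0.776 (r = 0.765, permutation p = 1e-05, the smallest the resamples can give, adjusted p = 0.00019). Zfp352 with AF067061 had rho = 0.683 (r = 0.60, permutation p = 5e-05, adjusted p = 0.00038). Of the 38 pairs, 16 passed an adjusted p of 0.05 over 29 embryos and 20 over 31. Without the 2 farthest embryos, r of these 3 pairs was 0.506, 0.697 and 0.496. The 1 negative pair that passed was Zfp750 with AF067063 (rho = -0.565, r = -0.544, adjusted p = 0.00633). Tcstv1 passed with BC147527 (rho = 0.614, r = 0.671, adjusted p = 0.00173), and Spz1 with AF067061 (rho = 0.468, r = 0.376, adjusted p = 0.0299). Zscan4c passed with Zscan4a (rho = 0.471, r = 0.521, adjusted p = 0.0299) and had rho = 0.356 with AF067061 (r = 0.221, adjusted p = 0.125).

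**Figure D5:**
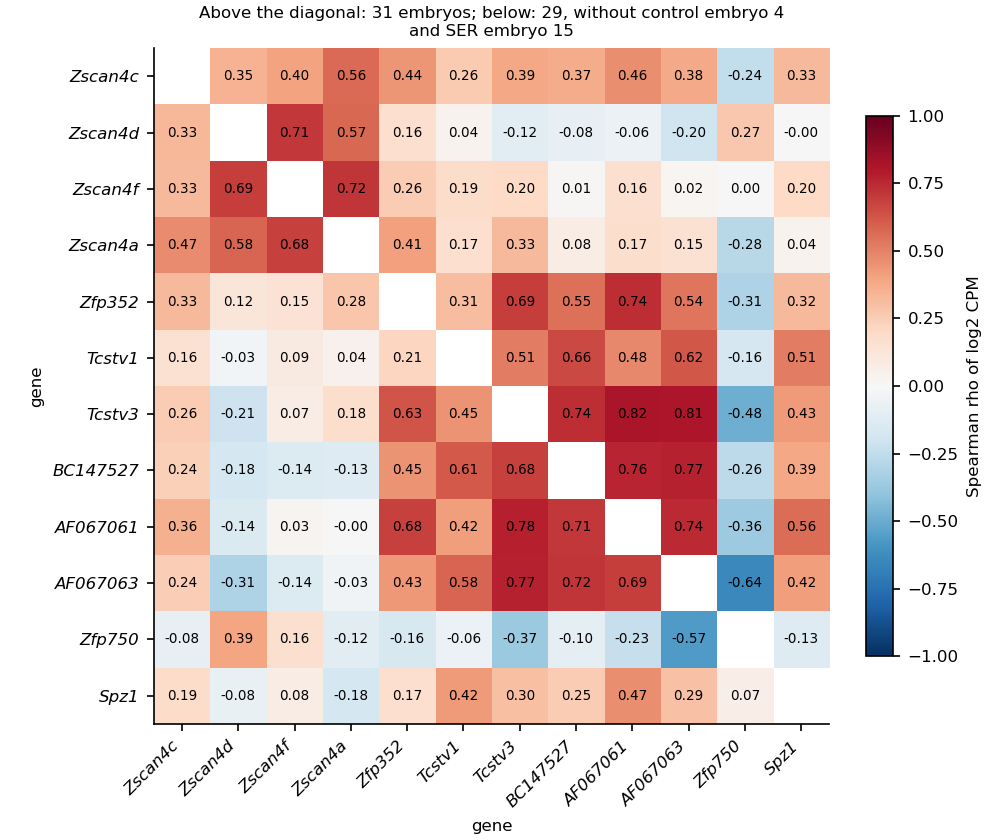
Spearman's rho of log2 CPM between pairs of the 8 detected genes and 4 relatives, over 31 embryos above the diagonal and over 29 below it. Zscan4d, Zscan4f and Zscan4a correlated with each other, and Zfp352 and Tcstv3 with AF067061, while Zscan4d with Tcstv3 was at -0.12 above and -0.21 below the diagonal.

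The 8 genes were also set against the mean over 24 other burst genes (24 relations adjusted together, 29 embryos). Here too the permutations take no account of batch or replicate number. The burst mean was highest in embryos 1, 2 and 3 of both groups. Tcstv3 followed it with rho = 0.814 (r = 0.760, permutation p = 1e-05 for both, adjusted p = 0.00024), and r was 0.787 without the 2 farthest embryos. Zfp352 followed it with rho = 0.699 (r = 0.687, permutation p = 4e-05 for rho, adjusted p = 0.00048), and so did Spz1 with rho = 0.515 (r = 0.545, permutation p = 0.00516, adjusted p = 0.031). With the same mean, rho was 0.319 for Zscan4c, -0.0187 for Zscan4d and 0.109 for Zscan4f (r = 0.277, 0.0208 and 0.165), with adjusted p of 0.249, 0.924 and 0.687. It was 0.462 for Tcstv1 (r = 0.433, adjusted p = 0.0569) and -0.351 for Zfp750 (r = -0.369, adjusted p = 0.188). Zfp750 rose with the mean of the maternal transcripts instead, with rho = 0.578 (permutation p = 0.00124, adjusted p = 0.00992), while r was 0.446 (permutation p = 0.0153, adjusted p = 0.0609). By group, that relation had rho = 0.279 in 15 control- and 0.723 in 14 SER-generated embryos (adjusted p = 0.580 and 0.0256), with r = 0.116 and 0.779.

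The genes most like the mean standardised profile of the 8, by rho over 31 embryos among tested genes outside them, were Usp17lb (0.743), a deubiquitinase gene of the 2-cell burst, and BB287469 (0.717), then Zfp54, Gid4, Grm2, AA623943, BC080695, Urml, M6pr and Epb41l4aos, down to 0.639. The 5 most opposed were Mutyh (-0.669), a DNA repair glycosylase gene, Thoc6, Ddi2, Rnf135 and Psen2 (-0.610). Usp17lb was also first over 29 embryos (0.683), with BB287469, Zfp54, Grm2 and Urml again among the first 10. The lowest there was Slc27a4 (-0.792), a fatty acid transporter gene. Against the same mean, which holds the gene itself, Zfp750 had a rho of 0.0339 over 31 and 0.255 over 29 embryos, and Zscan4f had 0.694 and 0.603.

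Other genes of the 2-cell programme were read from the same fit, and 0 of the tested genes of each list were called. Of 46 other burst genes, 30 had a row and 24 were tested, of which 15 had a higher and 9 a lower estimate, with a median log2 fold change of 0.09. The 4 with the highest mean log2 CPM were Slc34a2 (0.53), a phosphate transporter gene, Usp17lb (0.16), Sp110 (0.20) and Tmem92 (0.26), with adjusted p from 0.935 to 0.983. Of 39 tested regulators of the programme, 23 were higher and 16 lower, with a median of 0.08. Highest by the same measure were Dppa3 (-0.13), a maternal factor, Ncl (0.02), Tet3 (0.13), which oxidises methylated DNA, and Obox5 (-1.14, adjusted p = 0.450), a homeobox gene.

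Genes linked to Zscan4 through telomeres, recombination and DNA demethylation numbered 17 tested, with 5 higher, 12 lower and a median of -0.12. Highest were Atrx (-0.52), a chromatin remodeller, Uhrf1 (0.41), and the telomere proteins Terf1 (-0.09) and Tinf2 (-0.12). Of 21 other zygotic transcripts tested, 13 were higher and 8 lower (median 0.03), with Klf17 at 0.50 (adjusted p = 0.731), Yap1 at -0.35 and Pou5f1 at -0.27. Of 26 maternal transcripts tested, 8 were higher and 18 lower (median -0.23), with Omt2b at -0.58 (adjusted p = 0.745), Omt2a at -0.71 (adjusted p = 0.607), Btg4, which drives decay of maternal mRNA, at -0.58, and Ccnb1 at 0.06. All tested genes split into 4515 higher and 4056 lower.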

How the data were processed

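The deposited table held raw whole-number counts per gene, which the authors made by aligning 5′ reads with molecular identifiers and internal reads with STAR, removing duplicates with UMI-tools or Picard, and counting the merged alignments with FeatureCounts. The labels name the build mm10. Tool versions, annotation and strand setting were not given in the sources used here, and neither was the batch of each embryo. The embryos came from 3 batches, for which the authors corrected in their own analysis, but here no batch term could be fitted, and permutations treat all embryos as exchangeable.

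The groups were compared with edgeR 4.0.16 (R 4.3.3; TMM, filterByExpr at min.count 10 and min.total.count 15, quasi-likelihood test, no covariate, Benjamini-Hochberg, adjusted p under 0.1). Each SE was obtained from the log2 estimate and the square root of its F statistic. DESeq2 1.42.0 and limma 3.58.1 served as alternatives. Log2 CPM for spread and covariation used TMM and a prior count of 2. In simulated data of 16 and 15 embryos (8174 genes), edgeR found 88% of the 4-fold and 33% of the 2-fold changes that had been put in, and called 8 genes without one. Total counts of 532945 to 3088396 set the depth. A count of 0 allows up to 3 counts.

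Genes and lists were chosen with earlier results of these data known. Genes most like the members were the 10 highest and 5 lowest by rho, and each list was named by its 4 tested genes with the highest mean log2 CPM. Alternatives were another scaling, filter, test or prior count, library size as a covariate, a replicate block, thinned counts, summed rows and each embryo left out. Leaving out control embryo 4 with SER embryo 15, and SER embryos 12 to 14, was chosen after seeing the data. Exon lengths came from GENCODE vM21 (GRCm38) and promoters from RefSeq (GRCm38.p6), which held entries for 6 of the 10 genes.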

Additional observations from a re-analysis of the deposited data

How the results depend on the processing

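None of the 8 detected genes was called under any alternative. Not all 8 could be called in each, since DESeq2 gave Zscan4c and Zscan4f no adjusted p. With thinned counts, some of the 8 did not pass the filter. Over all genes, edgeR with no filter called 504 of 17803 (141 higher, 363 lower), DESeq2 46 (8 higher, 38 lower) and limma voom with quality weights 848 (391 higher, 457 lower), where edgeR with the filter called 0. With each embryo left out in turn, the count of called genes and of called members ran from 0 to 0. The cause of these differences was not tested. Relative to the main scaling, size factors moved the median log2 fold change of all genes by -0.0074 and total-count scaling by 0.0302.

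Directions that changed were all of estimates that were not called. Zfp750 was at -0.61 with DESeq2, -0.65 with limma voom, -0.0944 with log2 library size as a covariate, and ran from -0.60 without SER embryo 15 to 0.62 without control embryo 4, with -0.25 without control embryo 4 and SER embryo 15. Limma voom also gave -0.34 for Zscan4f, 0.0590 for Tcstv1 and 0.35 for Tcstv3. Library size as a covariate gave -0.0718 for Zscan4d and -0.43 for Zscan4f, and leaving out SER embryos 12 to 14 gave -0.23 for Zscan4d. The difference in spread turned to 0.00134 for Zfp352 and 0.00559 for Spz1 at a prior count of 0.5, and to 0.0310 for Spz1 with thinned counts.

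Of 28 pairs, 2 passed without control embryo 4 and SER embryo 15, against 5 with them. Values of rho near 0 changed sign for Zscan4d with Tcstv1 (-0.00645 with total-count scaling, -0.0291 without both embryos), Zscan4f with Zfp750 (-0.0149 with total-count scaling), Zscan4d with Spz1 (0.107 with thinned counts) and Zfp750 with Spz1 (0.0675 without both embryos). With thinned counts, 15 of 28 pairs could be computed.

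Correlations of same-numbered embryos ran from -0.37 to 0.49, with a median of 0.113, against -0.004 for other control- and SER-generated embryos. Of 15 same-numbered pairs, 8 were over 0.1, and 2 SER-generated embryos matched best with their own number. The highest means over the other burst genes, 5.88 to 6.30 log2 CPM, were in embryos 1, 2 and 3 of both groups. What the replicate numbers stand for was not tested, and the permutation tests take no account of them. With the replicate block, which left out the unpaired control embryo 16, 0 genes were called, and Zfp750 was at -0.0915. Depth limits the low rows most, since 3 counts equal 0.971 to 5.63 CPM.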
